A study of Mus musculus with 10 samples.

Results

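The genes followed here make, package, take back and break down the transmitter GABA, or carry the chloride on which its action depends. They were 7 of the 14300 genes in the deposited count table, chosen by name: *Gad1*, *Gad2*, *Slc32a1*, *Slc6a11*, *Abat*, *Slc12a2* and *Slc12a5*. All 7 were in the table. RNA was sequenced from mouse embryos of the C57BL/6J strain that carried Grem1creERT and Rosa26LSLTdtomato. Their mothers received 6 mg of tamoxifen by mouth at embryonic day 13, and the embryonic brain was collected 24 h later. Live cells were sorted into a TdTomato+ and a TdTomato- population from each of 5 mice, numbered 2 to 6, which gave 5 libraries per population. TdTomato+ cells are those in which CreERT, driven by *Grem1* enhancer and promoter sequences, was active when tamoxifen was present, with any daughters born since. TdTomato- cells are all other live cells of the same tissue. Both populations thus shared the inherited genotype and the tamoxifen, but not the recombined state of the Rosa26LSLTdtomato allele. The gate for TdTomato was set with littermates that carried no cre. Whether a number stands for a single embryo or for several is not given in the sources used here. The comparison asked how far the genes of GABA handling and chloride transport differed between *Grem1*-lineage cells and the rest, and how *Slc12a5* stood against *Slc12a2* in each library.

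GABA is made from glutamate by glutamic acid decarboxylase, loaded into synaptic vesicles by a vesicular transporter, taken up again by plasma membrane transporters and broken down by GABA transaminase. Its receptor is a chloride channel, so the effect of GABA on a neuron depends on the chloride gradient, which Slc12a2 (NKCC1) raises by chloride uptake and Slc12a5 (KCC2) lowers by extrusion. In the embryonic forebrain GABAergic neurons arise in the ganglionic eminences of the ventral telencephalon and migrate into the cortex, whereas the excitatory neurons of the cortex arise in its own ventricular zone.

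Total counts per library were 23429034 to 27286180, so both populations were read to like depth. *Grem1* itself was at 60.7 to 68.4 CPM (the read count of a gene, scaled by TMM to a common library size) in TdTomato+ and at 5.00 to 7.004 CPM in TdTomato- libraries. The labels give brain as the tissue, the study elsewhere the telencephalon, and its methods the dissected dorsal telencephalon. The TdTomato- libraries held markers of the ventral telencephalon, with *Gsx2* at 14.9 ± 1.19 and *Nkx2-1* at 68.7 ± 12.1 CPM (SD, n = 5). The summed level of 14 marker genes of GABAergic neurons and ganglionic eminences was 1803 to 2191 CPM in TdTomato- and 62.2 to 89.3 CPM in TdTomato+ libraries, where no marker was at 0 counts. All 14 were lower in TdTomato+ cells, as were all 8 radial glia markers (1572 to 1848 against 128.0 to 176.0 CPM in sum). All 4 intermediate progenitor markers were lower too, with sums of 809.6 to 1036 against 63.2 to 117.0 CPM. Of 8 excitatory neuron markers, some general and some of deep layers, 7 were higher in TdTomato+ cells and *Slc17a6* was lower. Their sum was 7013 to 8407 against 1846 to 2621 CPM. Among all genes tested, 39.4% were lower and 37.9% higher (edgeR, adjusted p of 0.05 or less). The sums for 5 oligodendrocyte precursor and astrocyte markers (53.0 to 90.3 against 2.16 to 4.09 CPM), 4 microglia markers (9.92 to 45.4 against 0.589 to 1.22), 5 erythroid markers (74.2 to 258.1 against 1.18 to 25.7), 4 pericyte markers (11.5 to 18.8 against 1.02 to 3.04), 2 choroid plexus markers (10.5 to 17.0 against 0.407 to 3.36), 2 endothelial markers (2.05 to 3.62 against 0.678 to 1.91) and 2 meningeal markers (1.88 to 5.29 against 0.564 to 1.09) were also higher in TdTomato- libraries. Defining markers of several of these types, such as *Cldn5*, *Kcnj8*, *Col1a1* and *Ttr*, are not in the table.

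The enzymes that make GABA and the transporter that loads it into vesicles were lower in TdTomato+ cells by a wide margin, its transaminase and an uptake carrier by less, and the cotransporter that imports chloride by the least, while the one that exports it was slightly higher. Of the 7 genes, 6 were lower in TdTomato+ cells at an adjusted p of 0.05 or less (edgeR, mouse as a block), against 39.4% of all genes tested. *Slc12a5* was the 1 gene that was higher, against 37.9% of all genes. All 7 thus passed the test in one direction or the other, as did 77.3% of all genes, so passing alone does not mark them out. With the added requirement of a log2 fold change of at least 2 in size, 4 of the 7 were lower (*Gad1*, *Gad2*, *Slc32a1* and *Abat*), against 9.74% of all genes, and 0 were higher, against 3.2%. The median log2 fold change was -2.03 over the 7 genes and -0.01 over all 14300. For 6 of the 7 the ranges of CPM in the 2 populations did not overlap, which held for 61.6% of all genes. Each of the 7 differed in the same direction in all 5 mice, as did 76.1% of all genes, and the plot of the level of each gene in the 10 libraries shows each mouse. In these bulk samples, fewer cells that express a gene and less of its RNA per cell cannot be told apart.

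**Figure D1:**
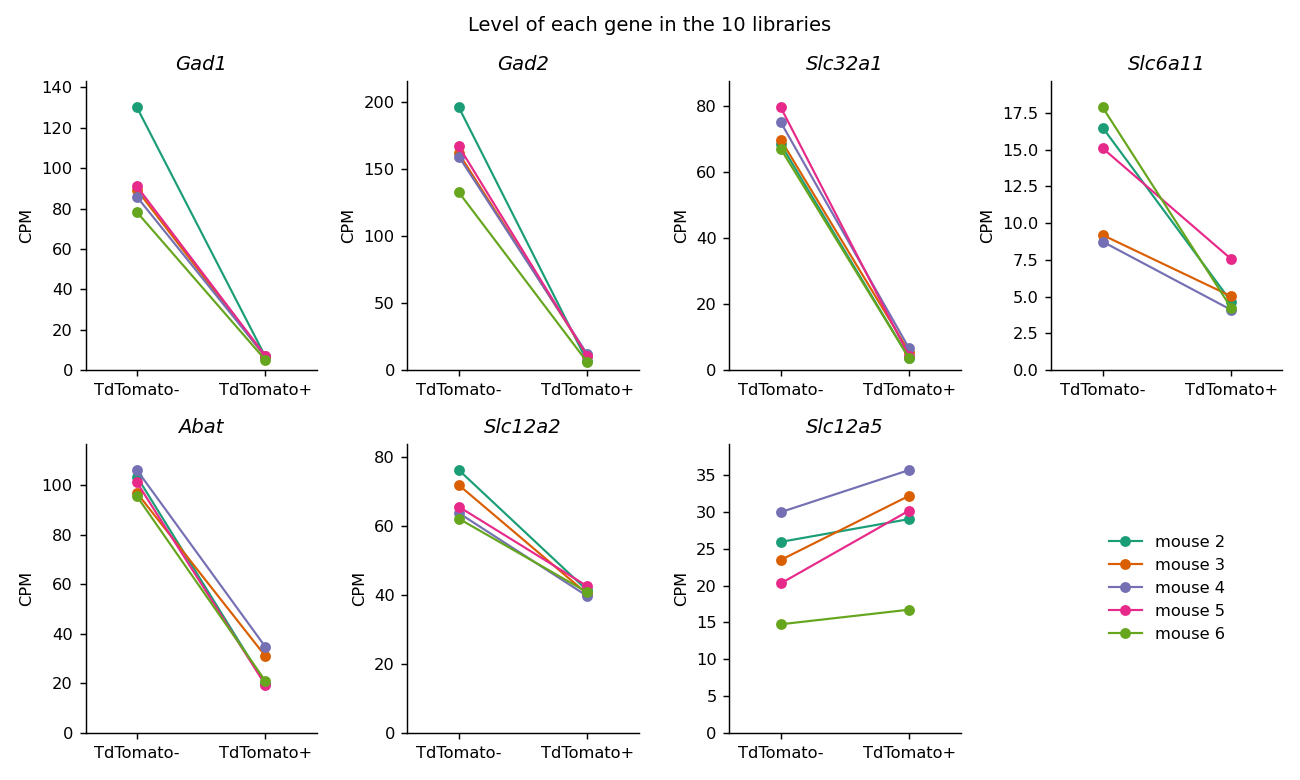
Level of each of the 7 genes in CPM (vertical axes, from 0, 1 scale per gene) in the TdTomato- and TdTomato+ library of each mouse. Lines join the 2 libraries of a mouse. *Gad1* was at 78.3 to 130.1 CPM in TdTomato- libraries and at 7.17 CPM or less in TdTomato+ libraries, whereas *Slc12a5* was higher in the TdTomato+ library of every mouse.

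All 7 genes lie on the plus strand, 4 of them on chromosome 2. The sequences of 300 bases around the start sites of *Gad1*, *Gad2* and *Slc32a1*, which were lower together, are printed with both start sites of *Slc12a5*, which was higher. They run from 250 bases before to 50 bases after the start that RefSeq gives on GRCm38.p6, where 5 of the 7 genes matched an entry. Capitals mark matches to an E-box (CANNTG, the core bound by basic helix-loop-helix factors) or to the right part of the RE1 element (GGACAGCGC, part of the site of the neuronal repressor REST), searched on both strands.
Gad1 (chr2:70561879-70562178, plus strand): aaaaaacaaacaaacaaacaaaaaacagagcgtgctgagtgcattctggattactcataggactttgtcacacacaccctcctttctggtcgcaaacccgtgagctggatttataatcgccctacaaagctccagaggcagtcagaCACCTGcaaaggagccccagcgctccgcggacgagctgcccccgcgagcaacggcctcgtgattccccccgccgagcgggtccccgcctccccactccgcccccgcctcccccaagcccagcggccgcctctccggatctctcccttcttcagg
Gad2 (chr2:22622077-22622376, plus strand): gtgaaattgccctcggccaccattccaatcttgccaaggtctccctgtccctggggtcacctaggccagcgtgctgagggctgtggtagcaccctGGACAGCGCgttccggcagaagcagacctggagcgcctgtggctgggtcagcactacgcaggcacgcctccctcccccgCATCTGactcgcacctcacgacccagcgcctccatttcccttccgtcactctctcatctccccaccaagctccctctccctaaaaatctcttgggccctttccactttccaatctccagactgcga
Slc32a1 (chr2:158610508-158610807, plus strand): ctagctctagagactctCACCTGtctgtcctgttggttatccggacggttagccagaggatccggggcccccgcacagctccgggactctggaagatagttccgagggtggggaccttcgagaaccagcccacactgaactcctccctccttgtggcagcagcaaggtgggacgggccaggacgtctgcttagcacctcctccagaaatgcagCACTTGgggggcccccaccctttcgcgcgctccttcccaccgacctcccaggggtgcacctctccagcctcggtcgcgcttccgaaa
Slc12a5, first start (chr2:164960596-164960895, plus strand): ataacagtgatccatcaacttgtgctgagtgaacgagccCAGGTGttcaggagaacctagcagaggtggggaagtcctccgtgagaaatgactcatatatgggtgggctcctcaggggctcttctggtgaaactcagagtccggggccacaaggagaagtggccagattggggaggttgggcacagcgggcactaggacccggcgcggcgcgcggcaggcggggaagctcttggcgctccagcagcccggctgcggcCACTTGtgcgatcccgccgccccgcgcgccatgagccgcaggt
Slc12a5, second start (chr2:164967738-164968037, plus strand): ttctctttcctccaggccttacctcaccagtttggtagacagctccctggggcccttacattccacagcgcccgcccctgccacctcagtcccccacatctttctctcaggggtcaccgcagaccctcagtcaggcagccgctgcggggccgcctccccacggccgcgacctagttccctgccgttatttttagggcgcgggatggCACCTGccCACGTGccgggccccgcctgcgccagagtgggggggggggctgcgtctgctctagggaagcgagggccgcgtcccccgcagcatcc
An E-box was in all 5 windows and in 72.3% of all 32851 promoter windows of that length. Counted from the start site, it began at base -104 in *Gad1* and at base -76 in *Gad2*. In *Slc32a1* matches began at bases -233 and -37. The first *Slc12a5* window held them at bases -211 and 8, and the second at bases -44 and -36. The right part of RE1 was found in the window of *Gad2*, at base -155, and in 0.405% of all windows. No window of these genes held an exact match to the homeodomain core TAATTA, found in 5.29% of all windows. The same was true of the left part of RE1 (TTCAGCACC), found in 0.371%. Near matches were not counted, and in *Gad2* the letters AGCACC, which end the left part, stand just before the right part. GC content was 60.0% for *Gad1*, 61.3% for *Gad2*, 63.3% for *Slc32a1*, and 63.7 and 68.3% for *Slc12a5*, against a median of 52.7% over all windows (interquartile range 45.7 to 61.7%). The motifs were chosen after the sequences had been seen, and a match describes letters, not a bound site.

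Both genes for glutamic acid decarboxylase, the enzyme that turns glutamate into GABA, were lower in every TdTomato+ library. *Gad1* (ENSMUSG00000070880, chromosome 2 from 70553072 to 70602014), the form that makes most GABA of the cell body, was at 130.1, 89.3, 85.9, 91.0 and 78.3 CPM in the TdTomato- libraries of mice 2 to 6. In the TdTomato+ libraries of the same mice it was at 6.76, 6.46, 6.84, 7.17 and 5.11 CPM. The lowest TdTomato- library thus lay far above the highest TdTomato+ library, and mouse 2 was high among the TdTomato- libraries only. The log2 fold change was -3.86 (s.e. 0.09, edgeR adjusted p = 2.76e-09), and the TdTomato+ mean was 6.81% of the TdTomato- mean. The raw counts behind the TdTomato+ values were 113 to 165 reads, so the remainder was measured well above 0.

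*Gad2* (ENSMUSG00000026787, chromosome 2 from 22622205 to 22693874), the form tied to nerve terminals and vesicles, was at 196.0, 161.6, 159.3, 166.9 and 132.6 CPM in the TdTomato- libraries of mice 2 to 6. In TdTomato+ libraries it was at 6.53, 10.9, 11.96, 10.7 and 6.01 CPM. The populations did not overlap, and among TdTomato+ libraries mice 2 and 6 were low and mice 3, 4 and 5 high. Its log2 fold change of -4.16 (s.e. 0.16, edgeR adjusted p = 2.49e-08) was the most negative of the 7 genes. Between mice the log2 difference ran from -4.89 in mouse 2 to -3.73 in mouse 4, a wider spread than for *Gad1* (-4.25 to -3.63).

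The count ratio of *Gad1* to *Gad2* was 0.664, 0.553, 0.539, 0.545 and 0.590 in the TdTomato- libraries of mice 2 to 6, and 1.03, 0.591, 0.572, 0.671 and 0.850 in the TdTomato+ libraries. It was higher in the TdTomato+ library of all 5 mice, by much in mice 2 and 6 and by little in mice 3 and 4. The mean log2 difference was 0.33 ± 0.25 (SD, n = 5 pairs; 95% interval 0.02 to 0.64), with an exact two-sided permutation p of 0.0625 (0.0938 adjusted over the 3 ratios tested). This p is the smallest that 5 pairs can give, so no ratio could pass 0.05.

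*Slc32a1* (ENSMUSG00000037771, chromosome 2 from 158610767 to 158615748) encodes the transporter that loads GABA and glycine into synaptic vesicles. It was at 68.4, 69.8, 75.1, 79.6 and 67.0 CPM in the TdTomato- libraries of mice 2 to 6 and at 3.58, 5.51, 6.58, 4.26 and 3.62 CPM in the TdTomato+ libraries. The populations did not overlap, and the TdTomato- libraries stood close together while mice 3 and 4 were high among the TdTomato+ libraries. The log2 fold change was -3.95 (s.e. 0.12, edgeR adjusted p = 7.40e-09), between those of *Gad1* and *Gad2*. Of the exonic length of *Slc32a1*, 24.9% overlaps the antisense gene *Gm14205*, whose mean level was small beside it (1.11 CPM in TdTomato- libraries, 0.0533 CPM in TdTomato+ libraries). The strand setting of the counts is not given in the sources used here. The ratio of *Slc32a1* to *Gad2* counts was 0.447 ± 0.0607 in TdTomato- and 0.520 ± 0.0765 in TdTomato+ libraries (SD, n = 5). It was higher in the TdTomato+ library of 4 of 5 mice and lower in mouse 5, with a mean log2 difference of 0.22 ± 0.32 (95% interval -0.18 to 0.62, exact two-sided permutation p = 0.3125, also after adjustment). The difference was 0.11 without mouse 2 and 0.34 without mouse 5.

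The share of the TdTomato- level that was left in the TdTomato+ library of the same mouse varied between mice. For *Gad2* it was 3.33, 6.76, 7.51, 6.41 and 4.53% in mice 2 to 6, and for *Slc32a1* 5.24, 7.89, 8.76, 5.35 and 5.39%. For *Gad1* it was 5.19, 7.23, 7.97, 7.88 and 6.53%. Mouse 2 was lowest and mouse 4 highest for all 3 genes, with mouse 3 next for *Gad2* and *Slc32a1* and mouse 5 next for *Gad1*. Beside these values, the sum of the 14 GABAergic and eminence markers was left at 2.97, 4.95, 4.95, 3.65 and 3.35%, highest in mice 3 and 4 and lowest in mouse 2. The radial glia sum was left at 7.46 to 9.97%, lowest in mouse 2 and highest in mouse 6. The part that these other cells had in the remaining *Gad1*, *Gad2* and *Slc32a1* counts was not tested.

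**Figure D2:**
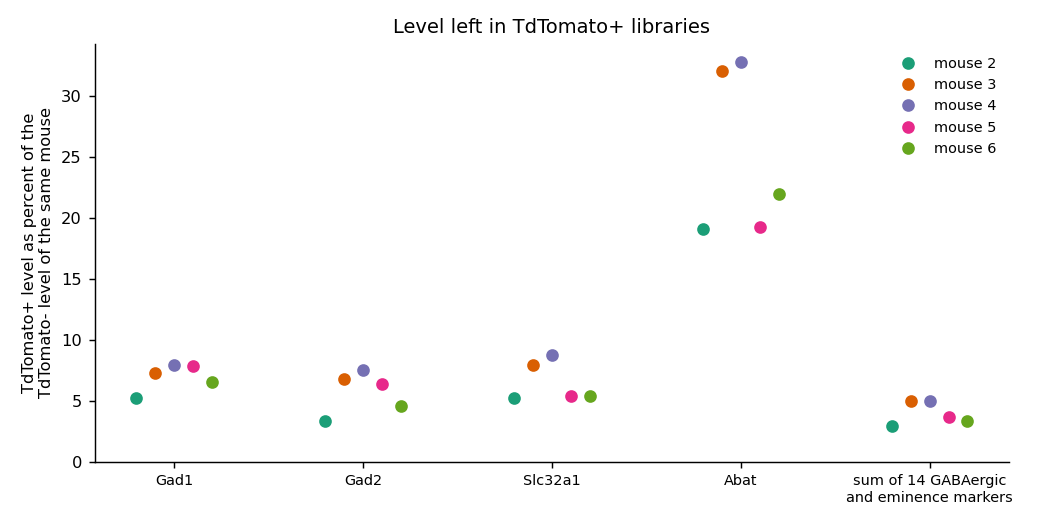
Level in the TdTomato+ library as a percent of that in the TdTomato- library of the same mouse (vertical axis, from 0) for *Gad1*, *Gad2*, *Slc32a1*, *Abat* and the sum of 14 GABAergic and eminence markers. Each point is a mouse. *Abat* was left at 19.1 to 32.8% and the marker sum at 2.97 to 4.95%, with mice 3 and 4 at the top in both.

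The genes of GABA removal had smaller log2 fold changes than those of its synthesis, a contrast between genes that was not tested. *Slc6a11* (ENSMUSG00000030307, chromosome 6 from 114131241 to 114249952), a plasma membrane GABA carrier known from astrocytes in the adult brain, was at 16.5, 9.19, 8.74, 15.1 and 17.9 CPM in the TdTomato- libraries of mice 2 to 6. In TdTomato+ libraries it was at 4.67, 5.03, 4.11, 7.57 and 4.25 CPM. The populations did not overlap but came close, since mouse 4 was low in TdTomato- and mouse 5 high in TdTomato+ cells. The log2 fold change was -1.37 (s.e. 0.18, edgeR adjusted p = 1.04e-04). In TdTomato- libraries *Slc6a11* was high in mice 2, 5 and 6 and low in mice 3 and 4. The summed oligodendrocyte precursor and astrocyte markers were 90.3, 54.1, 53.0, 80.4 and 87.2 CPM in the same 5 libraries, with *Sox10* absent from the table. The summed microglia markers were 45.4, 9.92, 12.9, 35.5 and 39.2 CPM, with *Aif1* absent from the table. The pericyte sum was 17.9, 12.99, 11.5, 17.0 and 18.8 CPM, and the sum of the GABAergic and eminence markers was 2191, 1804, 1803, 2148 and 1856 CPM. These sums and the erythroid sum (109.4, 74.2, 102.8, 249.8 and 258.1 CPM) were lowest in mice 3 and 4, as *Slc6a11* was. The sums for radial glia, intermediate progenitors, excitatory neurons, endothelium, meninges and choroid plexus did not have mice 3 and 4 as their 2 lowest. The meningeal and choroid plexus sums were highest in mouse 4. The part of any of these cell types in the level of *Slc6a11* was not tested.

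*Abat* (ENSMUSG00000057880, chromosome 16 from 8513429 to 8621568) encodes GABA transaminase, the mitochondrial enzyme that breaks GABA down. It was at 103.4, 96.9, 106.1, 101.1 and 95.5 CPM in the TdTomato- libraries of mice 2 to 6 and at 19.7, 31.0, 34.7, 19.4 and 21.0 CPM in the TdTomato+ libraries. The TdTomato- libraries hardly differed (coefficient of variation 4.39%), whereas mice 3 and 4 stood above the other 3 in TdTomato+ cells (28.5%). The log2 fold change was -2.03 (s.e. 0.13, edgeR adjusted p = 6.53e-07), so *Abat* sat at the threshold of 2. Without mouse 2, 5 or 6 it was -1.94, -1.95 or -1.99, and without the mouse block -1.997, all short of that threshold, which left 3 of the 7 genes past it. A test against a log2 fold change of 2 (edgeR, TREAT) also passed 3 of the 7. Of the TdTomato- level 25.03% was left, against 5.65 to 6.81% for the genes of synthesis and vesicle loading.

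Of 4 other genes of GABA uptake and breakdown examined in the table, 1 was lower, 1 was higher and 2 did not pass. Over all genes 39.4% were lower and 37.9% higher. The median log2 fold change of the 4 was 0.04. *Akr7a5*, which reduces succinic semialdehyde, the product of Abat, was lower by a log2 fold change of -0.56 (s.e. 0.08). *Maob*, a monoamine oxidase that takes part in making GABA from putrescine in glia, was higher by 0.72 (s.e. 0.23), from only 9 to 20 counts in TdTomato- and 18 to 28 in TdTomato+ libraries. *Aldh5a1*, which oxidizes succinic semialdehyde, was at 34.7 ± 1.49 and 34.9 ± 1.90 CPM (log2 fold change 0.01, s.e. 0.06, edgeR adjusted p = 0.879). *Aldh9a1*, an aldehyde dehydrogenase of the putrescine route, differed by 0.08 on the log2 scale (s.e. 0.06, edgeR adjusted p = 0.285). *Slc6a12* and *Slc6a13*, which encode further GABA carriers, are not in the table.

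Genes of precursor and cofactor supply differed by little. Of 3 genes examined, 1 was higher (37.9% of all genes) and 2 were lower (39.4% of all genes), with a median log2 fold change of -0.12. *Slc38a1*, a glutamine carrier, was at 418.9 ± 8.12 CPM in the TdTomato+ libraries against 386.1 ± 15.7 CPM in the others (SD, n = 5), higher by 0.12 on the log2 scale (s.e. 0.04, edgeR adjusted p = 0.0176). *Glul*, glutamine synthetase, was lower by a log2 fold change of -0.12 (s.e. 0.04). *Pdxk*, the kinase that makes pyridoxal phosphate, the cofactor of both decarboxylases and of Abat, was lower, at -0.53 on the same scale (s.e. 0.10), although 39.0% of its exonic length overlaps a gene on the opposite strand.

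The cotransporter that brings chloride in was lower in TdTomato+ cells and the one that takes it out slightly higher. *Slc12a2* (ENSMUSG00000024597, chromosome 18 from 57878678 to 57946821), which carries sodium, potassium and chloride inward, was at 76.3, 71.9, 63.8, 65.6 and 62.2 CPM in the TdTomato- libraries of mice 2 to 6. In TdTomato+ libraries it was at 41.3, 40.3, 39.7, 42.6 and 40.8 CPM. The populations did not overlap, and the TdTomato+ libraries lay within a few CPM of each other (coefficient of variation 2.66%). The log2 fold change was -0.73 (s.e. 0.06, edgeR adjusted p = 2.48e-06), so that 60.3% of the TdTomato- level remained.

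*Slc12a5* (ENSMUSG00000017740, chromosome 2 from 164960802 to 164999731), the neuronal potassium-chloride cotransporter that extrudes chloride, was at 25.9, 23.5, 30.0, 20.3 and 14.7 CPM in the TdTomato- libraries of mice 2 to 6. In TdTomato+ libraries it was at 29.0, 32.2, 35.7, 30.2 and 16.7 CPM. The populations overlapped, because the mice differed from each other by more than the populations did, with mouse 6 lowest and mouse 4 highest in both. Within each mouse the TdTomato+ library was the higher, by a log2 difference of 0.16, 0.45, 0.25, 0.57 and 0.18. The log2 fold change was 0.33 (s.e. 0.07, edgeR adjusted p = 0.00250), and leaving out any 1 mouse gave 0.27 to 0.37 with adjusted p of 0.00275 to 0.0127. The call was lost without the mouse block (0.33, s.e. 0.21, adjusted p = 0.167) and when libraries were scaled by total count alone (0.15, s.e. 0.07, adjusted p = 0.0902). That scaling moved the median over all genes to -0.18.

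The ratio of *Slc12a5* to *Slc12a2* needs no scaling between libraries. As counts it was 0.340, 0.326, 0.470, 0.309 and 0.237 in the TdTomato- libraries of mice 2 to 6, and 0.702, 0.798, 0.899, 0.709 and 0.410 in the TdTomato+ libraries. It was higher in the TdTomato+ library of all 5 mice, by 2.07, 2.45, 1.91, 2.29 and 1.73-fold, although the ranges overlapped because mouse 6 in TdTomato+ lay below mouse 4 in TdTomato- cells. The mean log2 difference was 1.05 ± 0.20 (SD, n = 5 pairs; 95% interval 0.80 to 1.30), a 2.07-fold higher ratio, with an exact two-sided permutation p of 0.0625, the smallest that 5 pairs allow, and 0.0938 after adjustment. Per kb of annotated exon (7447 bases for *Slc12a5*, 10920 for *Slc12a2*), the ratio was 0.493 ± 0.124 in TdTomato- and 1.03 ± 0.268 in TdTomato+ libraries (SD, n = 5). *Slc12a5* was thus below *Slc12a2* per kb in all 5 TdTomato- libraries. It was above *Slc12a2* in 4 of 5 TdTomato+ libraries, mouse 6 being the exception at 0.601. That order rests on the annotated lengths, since as counts *Slc12a5* was below *Slc12a2* in every library. The transcripts in use were not examined. The plot of ratios between genes within each library shows these 2 genes beside the 2 ratios of the synthesis genes.

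**Figure D3:**
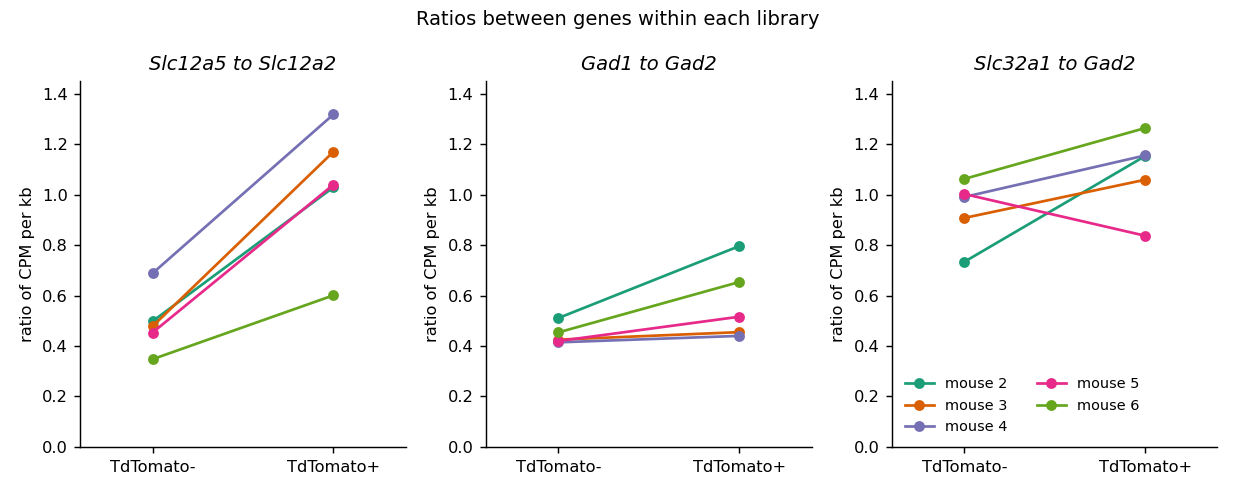
Ratio of the CPM per kb of exon of 2 genes (vertical axes, from 0) in the TdTomato- and TdTomato+ library of each mouse, with a line per mouse. The ratio of *Slc12a5* to *Slc12a2* went up in all 5 mice (mean 0.493 to 1.03), that of *Gad1* to *Gad2* by less (0.445 to 0.572), and that of *Slc32a1* to *Gad2* in 4 of 5.

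Among the other cation-chloride cotransporters and their relatives examined, 4 of 6 were in the table. Of these, 1 was lower (39.4% of all genes), 1 was higher (37.9%) and 2 did not pass (median log2 fold change 0.11). *Slc12a7*, a potassium-chloride cotransporter found in many tissues, averaged 72.0 ± 1.35 CPM over TdTomato- libraries and 11.2 ± 1.83 CPM over TdTomato+ libraries (SD, n = 5), a log2 fold change of -2.69 (s.e. 0.09, edgeR adjusted p = 1.28e-08). *Slc12a9*, a relative whose cargo is less well known, was higher by 0.54 (s.e. 0.05). *Slc12a4* (0.30, s.e. 0.14, edgeR adjusted p = 0.0725) and *Slc12a8* (-0.08, s.e. 0.26, adjusted p = 0.783) did not pass, and the kidney genes *Slc12a1* and *Slc12a3* are not in the table. Per kb of exon, *Slc12a7* averaged 5.68 ± 0.106 CPM per kb in TdTomato- libraries, above *Slc12a5* at 3.07 ± 0.773, and 0.884 ± 0.145 CPM per kb in TdTomato+ libraries, below *Slc12a5* at 3.86 ± 0.965 (SD, n = 5). *Slc12a4* averaged 2.27 ± 0.496 and 2.77 ± 0.347 CPM per kb.

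**Figure D4:**
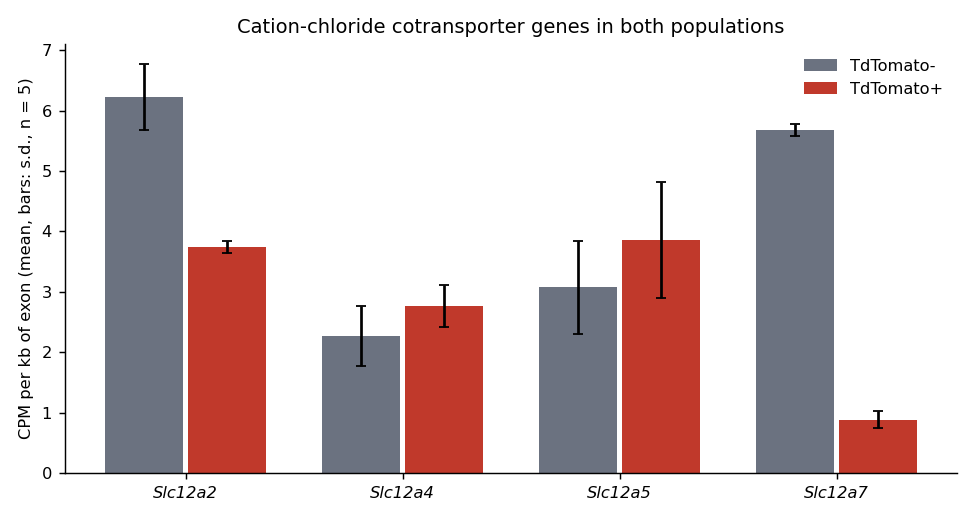
Mean CPM per kb of exon (vertical axis, from 0) of *Slc12a2* and the potassium-chloride cotransporter genes *Slc12a4*, *Slc12a5* and *Slc12a7* in TdTomato- and TdTomato+ libraries. Bars of error are the SD of 5 libraries. *Slc12a2* and *Slc12a7* were lower in TdTomato+ libraries (6.22 to 3.75 and 5.68 to 0.884), and the means of *Slc12a4* and *Slc12a5* were higher, of which *Slc12a4* did not pass the test.

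The kinases that switch these cotransporters, taken with their scaffold protein Cab39, went both ways. WNK kinases, through Stk39 (SPAK) and Oxsr1, phosphorylate both kinds of cotransporter, which activates Slc12a2 and inhibits Slc12a5. Of 7 genes, 2 were lower, 4 were higher and 1 did not pass, with a median log2 fold change of 0.14. Of all genes, 39.4% were lower and 37.9% higher. *Wnk1* was lower, at 192.4 ± 11.9 CPM in TdTomato+ against 339.2 ± 29.9 CPM in TdTomato- cells (SD, n = 5; log2 fold change -0.82, s.e. 0.05, edgeR adjusted p = 3.63e-07), and so was *Stk39* (-0.27, s.e. 0.07). *Wnk2* (0.61, s.e. 0.05), *Wnk3* (0.63, s.e. 0.06) and the scarce *Wnk4* (0.78, s.e. 0.19, from 22 to 31 against 30 to 43 counts) were higher, and so was *Cab39* (0.14, s.e. 0.05, edgeR adjusted p = 0.0186). *Oxsr1* did not pass (-0.10, s.e. 0.06, edgeR adjusted p = 0.182).

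Of 11 chloride channels, bicarbonate carriers and carbonic anhydrases, 8 were higher (37.9% of all genes), 2 were lower (39.4%) and 1 did not pass. Their median log2 fold change was 0.45. *Slc4a10*, a sodium-coupled bicarbonate transporter of neurons, averaged 33.8 ± 2.71 CPM over TdTomato+ libraries and 5.28 ± 1.11 CPM over TdTomato- libraries (SD, n = 5), a log2 fold change of 2.69 (s.e. 0.11, edgeR adjusted p = 3.68e-08). *Slc4a8*, which exchanges sodium and bicarbonate for chloride, was higher by 1.13 (s.e. 0.04). *Car7*, a neuronal carbonic anhydrase, was higher by 1.78 (s.e. 0.27), from 9 to 17 counts in TdTomato- and 27 to 52 in TdTomato+ libraries. *Car2*, the carbonic anhydrase of glia and red cells, was lower by a log2 fold change of -3.54 (s.e. 0.49), with 83 to 138 counts against 1 to 24. *Clcn5*, an endosomal chloride-proton exchanger, was lower too (-0.53, s.e. 0.05), and *Slc4a3*, an anion exchanger, did not pass (0.06, s.e. 0.05, edgeR adjusted p = 0.267). Over the 5 groups, 29 of 33 genes examined were in the table, 8 were lower and 15 higher, against the 39.4% and 37.9% of all genes given above, and their median log2 fold change was 0.14. With libraries scaled by total count alone, 11 were lower and 11 higher. The plot of log2 fold changes sets *Gad1*, *Gad2* and *Slc32a1* apart from most of these genes, with *Car2* the nearest to them.

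**Figure D5:**
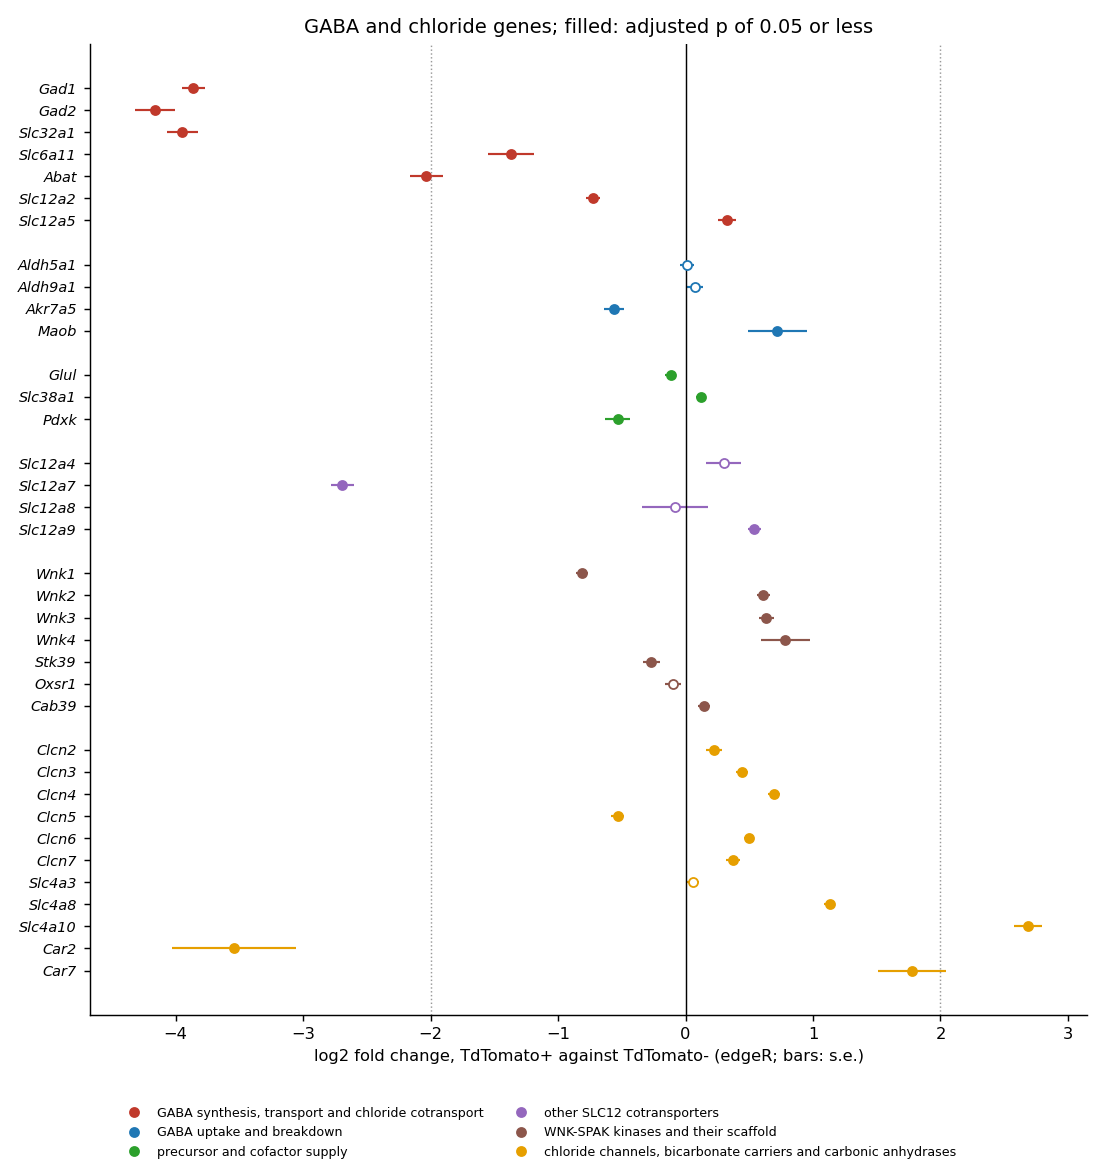
Log2 fold change of TdTomato+ against TdTomato- libraries (horizontal axis) for the 7 genes (red, top) and 29 other pathway genes in 5 groups. Bars are the standard error, filled points passed an adjusted p of 0.05, and dotted lines mark a log2 fold change of 2 in either direction. *Gad1*, *Gad2* and *Slc32a1* lay between -4.16 and -3.86, whereas *Slc12a5* was at 0.33.

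The order of the 7 genes by level, per kb of annotated exon, differed between the populations. Places within a population rest on the annotated lengths. In TdTomato- libraries *Gad2* (27.8 ± 3.84 CPM per kb, SD, n = 5) and *Slc32a1* (25.7 ± 1.87) led, with overlapping ranges. *Abat* (12.98 ± 0.570) and *Gad1* (12.4 ± 2.66) followed, again overlapping each other but not the pair above or *Slc12a2* (6.22 ± 0.544) below. *Slc12a5* (3.07 ± 0.773) and *Slc6a11* (2.67 ± 0.839) came last and overlapped. In TdTomato+ libraries *Slc12a5* (3.86 ± 0.965 CPM per kb), *Slc12a2* (3.75 ± 0.0998) and *Abat* (3.25 ± 0.926) led, and neighbours among these 3 overlapped. *Slc32a1* (1.68 ± 0.466) stood below *Abat* with no overlap, and *Gad2* (1.57 ± 0.467), *Slc6a11* (1.01 ± 0.280) and *Gad1* (0.847 ± 0.105) followed, each overlapping the gene before it. *Gad2*, *Slc32a1* and *Gad1*, at places 1, 2 and 4 in TdTomato- cells, were thus at places 5, 4 and 7 in TdTomato+ cells.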

How the data were processed

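RNA of live TdTomato+ and TdTomato- cells, sorted at 14.5 dpc, 24 h after 6 mg of tamoxifen at 13.5 dpc, was sequenced in 10 libraries, a pair from each of 5 mice. The deposited values are unnormalized gene-level read counts made by the authors. Before deposit they trimmed bases of low quality, aligned the reads to GRCm38 with STAR 2.4.2a and counted uniquely mapped reads, and their processing notes name edgeR 3.28.0. The annotation release and the strand setting are not given in the sources used here, and the labels and the methods name different library kits and read lengths. The table holds 14300 genes, each with at least 0.501 CPM in 5 libraries, so genes below that were not analysed here. GENCODE vM21 gave symbols for 14271 of them, coordinates and exonic length. The exonic length counts every annotated exon of a gene.

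The quasi-likelihood F-test of edgeR 4.0.16 was run on these counts in R 4.3.3, with mouse as a block, TMM scaling and filterByExpr, and p was adjusted by Benjamini-Hochberg over all 14300 genes. A gene passed at an adjusted p of 0.05 or less, and a log2 fold change of 2 in size was the further threshold. The test was tried on simulated data first. CPM used TMM-scaled totals, log2 CPM a prior count of 2. Total counts were 23429034 to 27286180. The lowest count behind a value of the 7 genes was 79 reads (*Slc32a1*, TdTomato+). No 2 libraries of a population agreed within sampling noise (chi-square per degree of freedom 4.53 or more). The methods describe paired comparisons over 5 sorted mice, and each number was taken as a mouse because it carries both populations. For the 2 libraries of a number, deviations from the population means correlated at 0.303, 0.268, 0.281, 0.186 and 0.316 for mice 2 to 6. Values for libraries of different numbers are not given here, so these correlations do not test the pairing. Ratios were tested by an exact sign-flip permutation test over the 5 pairs (scipy 1.17.1).

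The 7 genes were set by name, and the other lists and tests were chosen with earlier results of these data known. Of each other pathway group, the genes named are those that passed with the largest fold change, at most 3 in each direction. *Cab39* and genes that did not pass were named after their values were seen. For each of the 7 genes, the 3 genes of nearest pattern were named. Some genes that these rules or lists hold are not reported here, and counts of the other pathway genes leave them out. Alternatives were RLE scaling, scaling by total count, DESeq2 1.42.0, other count filters, no mouse block, and leaving out each mouse. Promoter sequences are those of RefSeq (GRCm38.p6). *Slc12a2* and *Abat* were not among those used here.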

Additional observations from a re-analysis of the deposited data

Results flagged for a closer look

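*Slc12a5* in the TdTomato+ library of mouse 6 stood apart from the other 4 TdTomato+ libraries, at 4.07 on the log2 CPM scale against 4.86 in the nearest library. That gap was 0.727 of the range of the 5 libraries, above the critical value of 0.71. The TdTomato- library of mouse 6 was also the lowest of its population for this gene, at 14.7 CPM. Of 20 groups of 5 libraries examined, chance gives about 1 such case. Without mouse 6 the log2 fold change of *Slc12a5* was 0.37 (edgeR adjusted p = 0.00275), and the mean log2 difference in the ratio of *Slc12a5* to *Slc12a2* was 1.12 over the 4 other pairs (exact permutation p = 0.125, the smallest that 4 pairs allow).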

How the results depend on the processing

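Of 77 alternative values for the log2 fold changes of the 7 genes, 75 kept their direction and their side of the adjusted p threshold of 0.05, 2 kept the direction only, and 0 reversed. Both of the latter were for *Slc12a5*, and with them the number of genes called higher went from 1 to 0 when libraries were scaled by total count alone and when the mouse block was left out. The cause was not tested. Without the block, the difference in the ratio of *Slc12a5* to *Slc12a2* was again 1.05, with an exact permutation p of 0.0159 that unpaired libraries allow and 5 pairs do not. The block changed no other call at an adjusted p of 0.05 among the 7 genes, and without it *Abat* fell short of a log2 fold change of -2, at -1.997. Over all alternatives the log2 fold change ran from -4.04 to -3.75 for *Gad1*, -4.34 to -3.99 for *Gad2*, -4.12 to -3.88 for *Slc32a1*, -1.55 to -1.19 for *Slc6a11*, -2.21 to -1.94 for *Abat*, -0.90 to -0.69 for *Slc12a2* and 0.15 to 0.37 for *Slc12a5*. The number of the 29 other pathway genes called lower was 7 to 11 and called higher 11 to 15. Depth limits scarce genes such as *Maob*, *Slc12a8*, *Wnk4*, *Car7* and *Car2*, with fewer than 60 counts in some or all libraries. Reads that *Slc32a1* and *Pdxk* share with overlapping genes could not be assigned here.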

Other observations

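Genes whose level followed each of the 7 most closely over the 10 libraries were found among the 9785 genes with a mean log2 CPM of at least 3, by the root mean square difference of log2 CPM after each gene was centred on its own mean. Nearest to *Gad1* were *Nrxn3* (0.190), *Fat1* (0.191) and *Crb2* (0.222), and nearest to *Gad2* were *Erbb4* (0.169), *Nrxn3* (0.171) and *Isl1* (0.186). *Nrxn3* is a presynaptic adhesion molecule, *Erbb4* a neuregulin receptor of migrating interneurons and *Isl1* a transcription factor of striatal and motor neurons. *Crb2* was also among the nearest to *Slc32a1* (0.178). *Abat* was followed by *Bcl2l11* (0.108), an inducer of apoptosis, *Slit2* (0.150), a repulsive axon guidance ligand, and *Epb41l5* (0.157). The nearest to *Slc6a11* were less close, with *Sh3rf3*, *Tspan7* and *Gng12* all at 0.280 to 0.282. *Slc12a2* had the closest neighbours of all 7, the cohesin subunit gene *Stag1* (0.0538), *Hspa4l* (0.0561) and *Qser1* (0.0612). For *Slc12a5* they were *Tmem200a* (0.172), the glutamate transporter gene *Slc1a2* (0.189) and the calcium release channel gene *Ryr2* (0.202).

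Among the 7 genes themselves, *Gad2* and *Slc32a1* were the closest pair on this measure (0.226), followed by *Gad1* and *Gad2* (0.294) and *Gad1* and *Slc32a1* (0.302). *Slc6a11* and *Slc12a2* came next (0.490). *Gad2* and *Slc12a5* were the farthest apart (2.27).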
